A study of Rattus norvegicus with 6 samples.

Results

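Circular RNAs that were well read in a single rat and listed at 0 in the other 5 are described here. In rat thalamus, 997 of 32445 circular RNAs (3.07%) had reads in exactly 1 of 6 libraries and at least 10 reads there, and the selection used these read counts alone. They were 10.5% of the 9452 circles with reads in 1 library, and held 18162 reads, or 0.371% of all circRNA reads. They are called single-library circles below, and are set beside the 8335 circles with reads in all 6 libraries. In 3 rats both temporomandibular joints received 50 µL of CFA (complete Freund's adjuvant, which provokes lasting joint inflammation). In the other 3 rats both joints received 50 µL of saline, and no strain, sex or age is given in the labels. Injections were given 2 times per week in both groups, and the thalamus was taken after 14 days. The depth ranged from 573696 to 1176178 circRNA reads per library. The deposited identifiers are not paired with gene names, so the labelled tissue was not checked against marker genes and no host gene is named.

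A circular RNA (circRNA) forms by back-splicing, in which a downstream splice donor joins an upstream splice acceptor and closes the exons between them into a ring. The ring has no free end and is seen in sequencing through reads that cross the back-splice. Neurons are rich in circRNAs, and 1 gene often yields several circles that reuse the same donor or acceptor. Most circles join several exons from which the introns were removed, while others are 1 exon or keep an intron. In mammalian exons the bases before a donor site are often AG, and the base after an acceptor site is often G.

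The junctions of the circle with the most reads in each library show what is being described. Each line gives the last 29 bases of the circle in lower case, on the donor side, and then its first 29 bases in capitals, on the acceptor side, so the back-splice lies between lower case and capitals. The first 3 come from CFA replicates 1, 2 and 3 and the last 3 from saline replicates 1, 2 and 3.
novel_circ_0013639: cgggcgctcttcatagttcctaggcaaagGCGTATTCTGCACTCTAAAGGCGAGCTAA
novel_circ_0015470: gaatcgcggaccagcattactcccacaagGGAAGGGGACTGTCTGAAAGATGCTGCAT
novel_circ_0031238: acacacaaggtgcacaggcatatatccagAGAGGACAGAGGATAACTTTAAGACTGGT
novel_circ_0038526: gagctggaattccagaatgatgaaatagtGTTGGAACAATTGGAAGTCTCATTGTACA
novel_circ_0027116: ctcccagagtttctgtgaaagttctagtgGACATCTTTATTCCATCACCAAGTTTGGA
novel_circ_0035023: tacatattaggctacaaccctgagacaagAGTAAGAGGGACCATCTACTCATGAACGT
In the deposited coordinates (genome build not given in the sources used here) these circles lie as follows. The first is on the minus strand at chr17:76245627-76265943. The second is on the minus strand at chr18:69943105-69944476. The third is on the plus strand at chr4:161824417-161827025. The fourth is on the minus strand at chr6:4518806-4520635. The fifth is on the minus strand at chr3:113195876-113197193. The sixth is on the plus strand at chr5:167516581-167526275. On the donor side the fourth ends in GT, the fifth in TG and the others in AG.

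Most single-library circles sat close to the threshold that chose them. Of the 997, 324 had exactly 10 reads, 807 (80.9%) had 10 to 14, and 83 had 20 or more. At 50 reads or more there were 33, and at 100 reads or more 16, which held 26.4% of the reads of all 997. Just outside the threshold, 457 circles had 9 reads in 1 library. Circles with 10 and with 9 reads had median spliced lengths of 358 and 359 nt and median genomic spans of 10506.5 and 11031 nt. An unspliced sequence was found in 4.32% and 2.84%, and an end shared with a circle of all 6 libraries in 29.3% and 34.8%. Circles on both sides of the threshold were thus alike in length, and these values are a description.

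The libraries held very different numbers of single-library circles. CFA replicates 1, 2 and 3 held 74, 103 and 215, and saline replicates 1, 2 and 3 held 76, 365 and 164. The same libraries had 656598, 651615 and 903443 circRNA reads after CFA and 573696, 1176178 and 936062 after saline. The 3 libraries with fewer reads held 103 or fewer, the 3 with more held 164 or more, and the deepest, saline replicate 2, held the most. As a percentage of all circles with at least 10 reads in the library, the values were 0.858%, 1.19% and 1.99% after CFA and 0.944%, 2.91% and 1.53% after saline. Every library was then thinned to 573696 reads, counts of 1 were dropped, and single-library circles were chosen anew, so they need not be among the 997. The means of 20 thinnings were 55.05, 78.55 and 49.8 circles after CFA and 91.8, 49.65 and 38 after saline. Saline replicate 1, which had the fewest reads before thinning, then held the most.

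**Figure D1:**
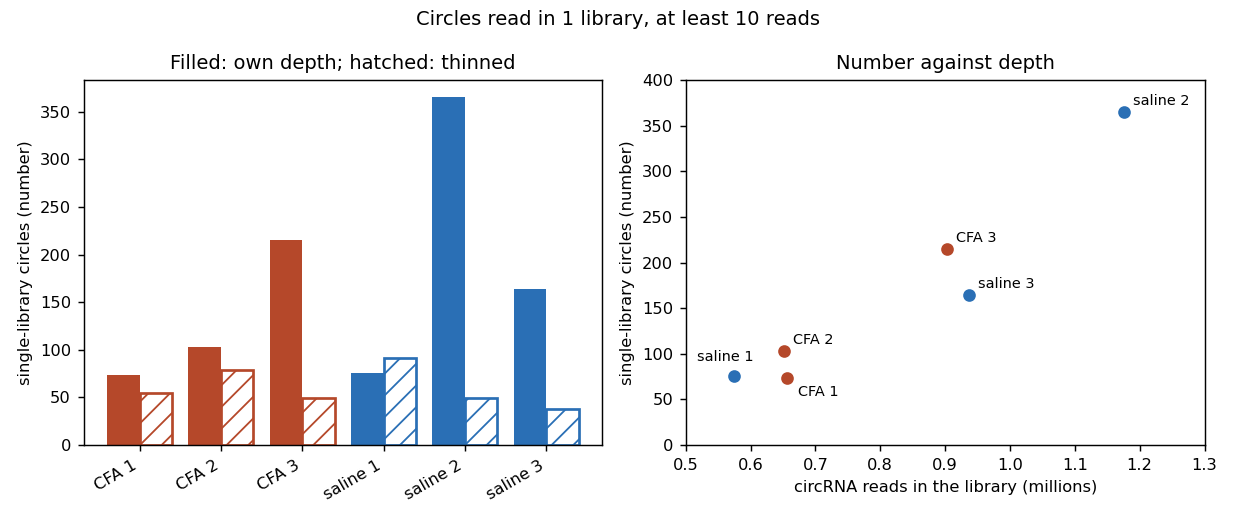
Number of single-library circles in each library. In the left panel the filled bars give the number at the library's own depth and the hatched bars the mean number after thinning all libraries to 573696 reads; the right panel plots the number at own depth against the circRNA reads of the library in units of 1000000, with CFA in red and saline in blue. The number runs from 74 in CFA replicate 1 to 365 in saline replicate 2 at own depth, and from 38 to 91.8 after thinning.

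After CFA the number of single-library circles was 131 ± 74.5, beside 202 ± 148 in saline rats (mean ± SD, n = 3 libraries in each group), and the groups overlapped. The exact two-sided permutation test over the 3 and 3 libraries gave p = 0.6, where 0.1 is the smallest value this design allows. As a percentage of circles with at least 10 reads the means were 1.35% ± 0.580 and 1.80% ± 1.01 (SD, n = 3 each; exact permutation p = 0.6). After thinning they were 61.1 ± 15.3 and 59.8 ± 28.3 circles (SD, n = 3 each; exact permutation p = 0.9). The difference in number was therefore smaller than the spread between libraries. Its sign turned after thinning, where the means of 61.1 and 59.8 circles lay close, and the part of depth was not tested. In bulk tissue, fewer cells that hold a circle and fewer copies in each cell cannot be told apart.

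The highest count of a single-library circle also differed between libraries. It was 937, 375 and 96 reads in CFA replicates 1, 2 and 3, and 587, 415 and 194 in saline replicates 1, 2 and 3. The deepest library, saline replicate 2, did not hold the highest count. The 4 circles of 100 or more reads in CFA replicate 1 held 60.6% of the reads of its 74 single-library circles. In saline replicate 2 the share held by such circles was 18.8%, and CFA replicate 3 had no circle of 100 reads. The single-library circles took 0.406%, 0.311% and 0.314% of the reads of the CFA libraries and 0.348%, 0.521% and 0.268% of the saline libraries.

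**Figure D2:**
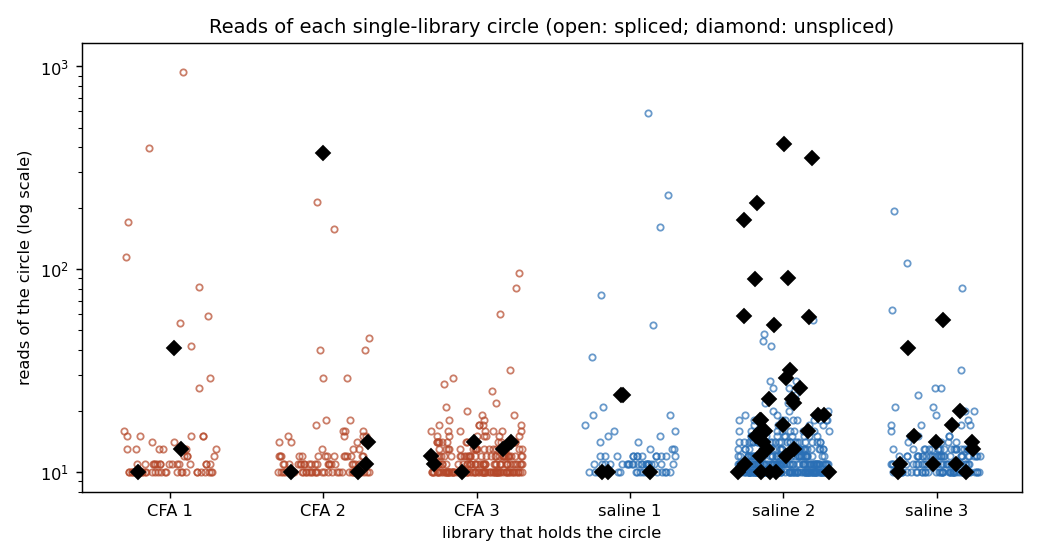
Reads of each of the 997 single-library circles in the library that holds it, on a log scale. Open circles are spliced (red for CFA, blue for saline) and black diamonds are unspliced, and the horizontal spread within a library has no meaning; most points lie between 10 and 14 reads, and 9 of the 11 diamonds at 50 reads or more are in saline replicate 2.

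In each library single-library circles had a shorter median length than circles of all 6 libraries. Within each library they were compared with those circles of all 6 libraries that had at least 10 reads there, 6336 to 7569 per library. Median spliced length was 313.5, 369 and 350 nt in CFA replicates 1, 2 and 3 and 324, 402 and 418 nt in saline replicates 1, 2 and 3. For the circles of all 6 libraries it was 480 to 489 nt in every library, so the classes did not overlap. The means were 363 ± 41.8 and 484 ± 3.61 nt (SD, n = 6 libraries; exact sign-flip permutation p = 0.03125, the smallest possible). Adjusted by Benjamini-Hochberg over the 10 features compared, the exact permutation p was 0.0521, just above the threshold of 0.05. With comparison circles of 10 to 49 reads in the library the difference was -101 nt instead of -122 nt. At a minimum of 20 reads, with 8 to 30 circles per library, it was -15.8 nt (exact permutation p = 0.719). Single-library circles were then longer in CFA replicate 2 and saline replicates 1, 2 and 3, and shorter in CFA replicates 1 and 3. Pooled by highest count, their median and that of circles of all 6 libraries were 371 and 403 nt at 10 to 19 reads. The medians were 478.5 and 453 nt at 20 to 49 reads, and 606 and 512 nt at 50 or more. Over all 997 the length ran from 131 to 3215 nt, with quartiles of 302 and 472 nt, and 26 (2.61%) reached 1000 nt, beside 1.34% of circles of all 6 libraries with at least 10 reads in some library.

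The genomic span, from the first to the last position of the circle with introns included, had a lower median in each library as well. Its median was 10250.5, 9666 and 10786 nt after CFA and 8909, 11248 and 13086 nt after saline. Circles of all 6 libraries had medians of 12801 to 13226 nt. Single-library circles were lower in 6 of 6 libraries, and by no more than 140 nt in saline replicate 3. The means were 10658 ± 1447 and 13037 ± 174 nt (SD, n = 6; exact sign-flip permutation p = 0.03125, adjusted 0.0521). With unspliced circles left out of both classes the difference was -2065 nt instead of -2379 nt (exact permutation p = 0.0938). Saline replicate 3 alone then had the higher median in single-library circles, at 14549 beside 13650 nt. It alone was also higher against circles read in 2 to 5 libraries, at 13086 beside 12633 nt.

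Unspliced circles, whose sequence has the same length as their genomic span, made up a larger share of single-library circles. A ring of 1 exon meets this definition, as does one that keeps an intron, and without exon positions they cannot be told apart. The share was 4.05%, 4.85% and 2.79% in CFA replicates 1, 2 and 3, from 3, 5 and 6 circles. It was 6.58%, 9.59% and 7.93% in saline replicates 1, 2 and 3, from 5, 35 and 13 circles. Among circles of all 6 libraries it was 2.50% to 2.79% in every library. The means were 5.97% ± 2.54 and 2.63% ± 0.136 (SD, n = 6; exact sign-flip permutation p = 0.03125, adjusted 0.0521), with single-library circles higher in 6 of 6 libraries. The difference of 3.34 percentage points depended on the minimum: it was 0.640 at 5 reads (exact permutation p = 0.188) and 15.8 at 20 reads (exact permutation p = 0.0625). At 20 reads the CFA libraries held 11, 8 and 10 single-library circles and the saline libraries 9, 30 and 15. The share then ran from 0% to 12.5% after CFA and from 20% to 50% after saline, with 50% in saline replicate 2.

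The unspliced share was higher among single-library circles with more reads, and much of that came from 1 library. Among single-library circles of 10 to 19 reads 45 of 914 were unspliced (4.92%), among those of 20 to 49 reads 11 of 50 (22.0%), and among those of 50 or more 11 of 33 (33.3%). Circles of all 6 libraries with a highest count in the same ranges were unspliced in 0.672%, 1.44% and 3.56% of cases. Saline replicate 2 held 35 of the 67 unspliced single-library circles and 9 of the 11 with at least 50 reads. Without it the shares over the 3 ranges were 4.32% (25 of 579), 16.7% (5 of 30) and 8.70% (2 of 23), and the share over all ranges was 5.06% (32 of 632) in place of 6.72%. These shares pool circles of several libraries and are a description.

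Pooled over the libraries, unspliced single-library circles differed from the unspliced circles of all 6 libraries in length and surroundings, but not in the same direction in every library. The 67 had a median length of 653 nt, beside 453.5 nt for the 198 unspliced circles of all 6 libraries, and 16.4% beside 38.9% shared an end with a circle of all 6 libraries. No other circle lay on the same strand for 46.3% of them, beside 25.8%. Saline replicates 1, 2 and 3, with 5, 35 and 13 of the 67, had median lengths of 465, 672 and 633 nt. CFA replicates 1, 2 and 3, with 3, 5 and 6 circles, had medians of 715, 330 and 535.5 nt. In length, CFA replicate 2 alone thus lay below 453.5 nt. Of the 3 circles of CFA replicate 1, 66.7% shared an end, and 16.7% of the 6 circles of CFA replicate 3 had no other circle on their strand. These differences were not tested. Of the 19 unspliced circles of 1000 nt or more in the whole table, 11 had reads in 1 library, 8 of them with at least 10 reads, and 2 had reads in all 6. The longest single-library circle, of 3215 nt, was unspliced.

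The back-splice ends of single-library circles were shared with circles of all 6 libraries in a smaller share of cases in each library. An end counted as shared when its position and strand were identical to those of a start or end, respectively, of another circle with reads in all 6. The share was 33.8%, 31.1% and 33.5% after CFA and 28.9%, 30.1% and 39.6% after saline. Among circles of all 6 libraries it was 63.6% to 64.5% in every library. The means were 32.8% ± 3.82 and 63.99% ± 0.330 (SD, n = 6; exact sign-flip permutation p = 0.03125, adjusted 0.0521). The circles searched for shared ends were also the comparison class, each set beside the others of that class. Both classes were chosen by read counts, and the part of this choice in the difference was not tested. The gap of -31.2 percentage points was -27.2 with comparison circles of 10 to 49 reads and -15.8 against circles read in 2 to 5 libraries. Over all 997, 326 shared an end: 157 shared the lower coordinate, 141 the higher, and 28 (2.81%) both, beside 16.4% with both ends shared among circles of all 6 libraries with at least 10 reads in some library.

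The overlap with circles of all 6 libraries on the same strand followed the same direction, with the same limit from the comparison class. It was found for a mean of 45.6% ± 3.97 of single-library circles and 71.0% ± 0.241 of circles of all 6 libraries (SD, n = 6; exact sign-flip permutation p = 0.03125, adjusted 0.0521). Ends that lay 1 to 10 nt from an end of a circle of all 6 libraries without matching it were rare in both classes, with means of 0.201% and 0.854% (exact permutation p = 0.0625). Such near ends were found in 3 of the 997. For 14 of the 997, both ends lay within 10 nt of those of another circle, and for 4 of these 14 that other circle had reads in all 6 libraries. A junction of 58 bases within 2 mismatches of another circle's was found for 1 of the 997 and for 57 circles of all 6 libraries (0.684%).

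The bases at the back-splice differed less. The last 2 bases were AG in a mean of 52.8% ± 3.14 of single-library circles and 55.8% ± 0.303 of circles of all 6 libraries, lower in 6 of 6 libraries (SD, n = 6; exact sign-flip permutation p = 0.03125, adjusted 0.0521). CFA replicate 2 alone lay below 50%, at 46.6%, and without it the difference was -1.78 percentage points in place of -2.95. At a minimum of 5 reads it was -1.07 (exact permutation p = 0.5), with single-library circles lower in CFA replicates 1 and 2 and higher in the other 4 libraries. A first base of G was found in 45.6% and 44.8% (exact permutation p = 0.75), and median GC content was 48.0% and 47.5% (exact permutation p = 0.156). Overlap on the opposite strand alone was found in 0.169% and 0.0554% (exact permutation p = 0.5). Of the 10 features, 6 had the smallest p the design allows and none passed after adjustment. These 6 share the adjusted exact permutation p of 0.0521 whatever the size of their differences, so it does not rank them.

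**Figure D3:**
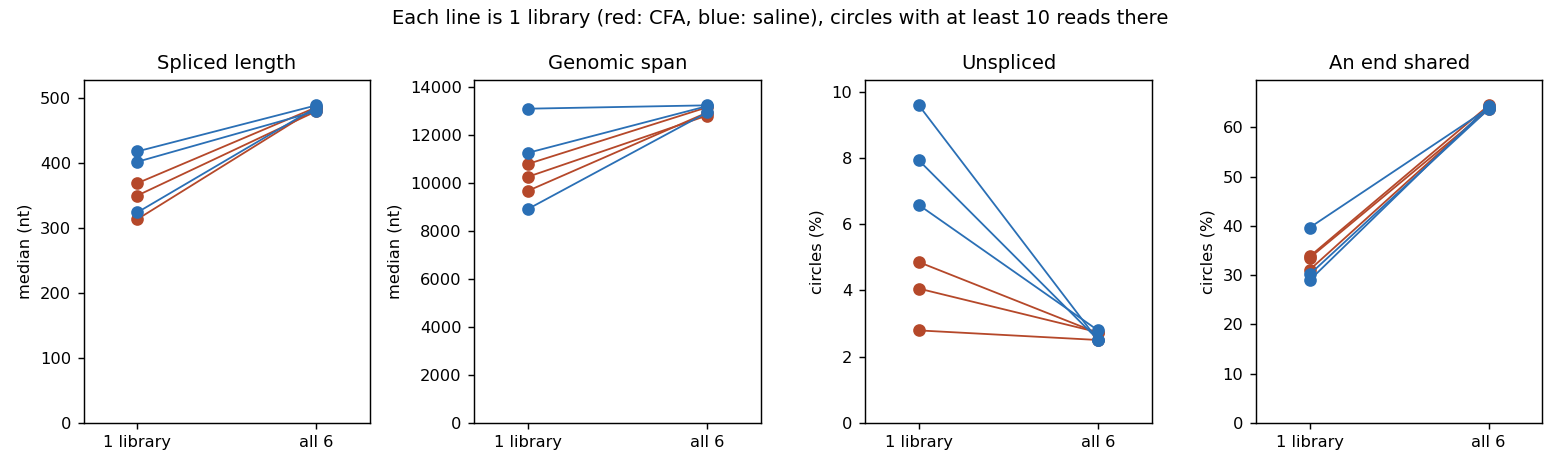
Median spliced length in nt, median genomic span in nt, percentage of unspliced circles and percentage with an end shared with a circle of all 6 libraries. Each line joins the single-library circles of 1 library (left) to the circles of all 6 libraries with at least 10 reads in that library (right), red for CFA and blue for saline; in all 4 panels the 6 lines run in the same direction.

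The same features followed the number of libraries that held a circle, which is given as a description. The circles with at least 10 reads in some library numbered 997, 1388, 1880, 2192, 3119 and 8272 for 1 to 6 libraries. An end shared with another circle of all 6 libraries was found in 32.7%, 39.7%, 44.8%, 48.3%, 51.1% and 62.8% of them. Both ends were shared in 2.81%, 5.26%, 6.28%, 6.93%, 7.66% and 16.4%. Each of these shares was higher at every step. For both, the step to 6 libraries, the class that was also searched for shared ends, was the largest. Median length was 381, 389.5, 398, 402.5, 417 and 472 nt in the same order. The unspliced share was 6.72%, 3.67%, 3.56%, 2.28%, 1.89% and 2.36%, so it was lowest in circles of 5 libraries. The median highest count of these classes was 11, 12, 13, 15, 19 and 47 reads, so the number of libraries and the number of reads moved together.

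**Figure D4:**
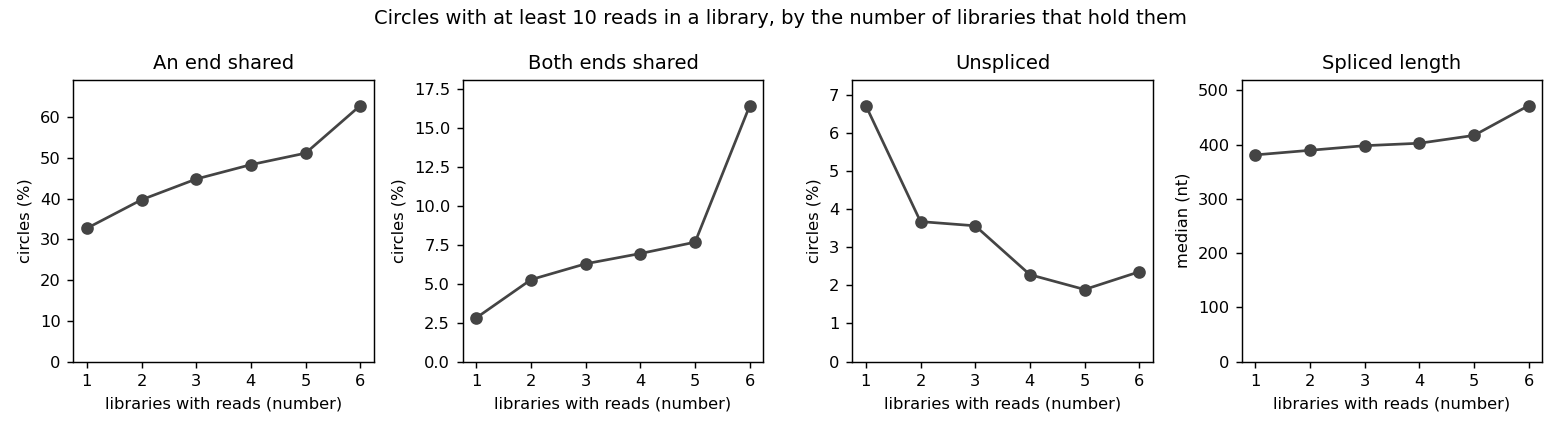
Circles with at least 10 reads in some library, grouped by the number of libraries with reads (1 to 6). The panels give the percentage with an end shared with another circle of all 6 libraries, the percentage with both ends shared, the percentage unspliced and the median spliced length in nt; 1 library stands at 32.7%, 2.81%, 6.72% and 381 nt, and 6 libraries at 62.8%, 16.4%, 2.36% and 472 nt.

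Single-library circles were spread widely over the genome. A locus is taken here as a run of circles that overlap on the same strand. The 997 lay in 909 loci, of which 76 held several and the richest held 5. In 570 cases (57.2%) the other circles of the locus together had reads in all 6 libraries, in 208 (20.9%) in 1 to 5 libraries, and 219 (22.0%) had no other circle in the locus. No other circle was found for 7.43% of circles of all 6 libraries with at least 10 reads in some library. Of the 778 with company, 213 had the most reads of their locus in their own library, and the median share of those locus reads was 14.8%. Most single-library circles thus came from loci that other circles showed to be read in every rat. The X chromosome held 32 (3.21%, beside 2.36% of circles of all 6 libraries) and the plus strand 49.4% (beside 50.6%).

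Pairs of single-library circles in 1 locus came from the same library about as often as any pair of them. Of 106 pairs in the same locus, 28 (26.4%) were from 1 library, beside 22.9% of all pairs of the 997. Of the 38 pairs that also shared an end, 16 (42.1%) were from 1 library. A single locus on chromosome 10, described below, gave 6 of these pairs, all from CFA replicate 2. Without it the values were 22 of 100 pairs (22.0%) and, with a shared end, 10 of 32 (31.3%). In 17 of the 76 loci with several single-library circles, all of them came from 1 library. These shares are a description and were not tested, since circles that overlap in a locus may not be independent of each other.

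The circle with the most reads in a single library, novel_circ_0013639, lay in a locus read in every rat. This 546 nt circle, the first junction printed above, had 937 reads in CFA replicate 1 (1427 RPM, reads scaled to 1000000 circRNA reads) and 0 in the other 5 libraries. The 19 other circles of its locus together had 148, 75 and 200 reads in CFA replicates 1, 2 and 3 and 118, 259 and 137 in saline replicates 1, 2 and 3. In CFA replicate 1 it thus took 86.4% of the reads of the locus. It shares its higher coordinate, which on the minus strand is the acceptor side, with novel_circ_0013633 at chr17:76228430-76265943, a 574 nt circle of all 6 libraries. That circle had CFA counts of 52, 19 and 90 reads and saline counts of 26, 82 and 43. The junctions below show the identical acceptor sides in capitals and the different donor sides in lower case.
novel_circ_0013639: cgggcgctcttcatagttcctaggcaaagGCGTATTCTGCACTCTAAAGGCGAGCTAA
novel_circ_0013633: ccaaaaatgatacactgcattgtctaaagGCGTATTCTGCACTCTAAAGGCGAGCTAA

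On chromosome 13 a single-library circle reused both ends of circles found in every rat. The 922 nt novel_circ_0005597, on the minus strand at chr13:109403515-109471561, had 395 reads in CFA replicate 1 and 0 elsewhere. Its acceptor side is that of the 736 nt novel_circ_0005608 at chr13:109442255-109471561, which had CFA counts of 1185, 737 and 1575 reads and saline counts of 734, 2030 and 1798. Its donor side is that of the 779 nt novel_circ_0005595 at chr13:109403515-109459916, which had CFA counts of 98, 61 and 131 reads and saline counts of 83, 159 and 209. In CFA replicate 1, the library that held the single-library circle, both neighbours lay within the range of the other libraries. The 3 junctions are shown so that the shared parts can be read, lower case with the donor neighbour and capitals with the acceptor neighbour.
novel_circ_0005597: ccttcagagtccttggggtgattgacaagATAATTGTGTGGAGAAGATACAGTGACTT
novel_circ_0005595: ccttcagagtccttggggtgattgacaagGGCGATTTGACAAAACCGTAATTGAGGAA
novel_circ_0005608: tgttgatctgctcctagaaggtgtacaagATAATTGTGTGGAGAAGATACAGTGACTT

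A similar arrangement on chromosome 5 was read in saline replicate 3. The 604 nt novel_circ_0035023, the sixth junction above, had 194 reads there and 0 elsewhere, or 1.82% of the reads of a locus with 32 other circles. It shares its acceptor side with novel_circ_0035025 at chr5:167516581-167558250, which had CFA counts of 1485, 1353 and 1986 reads and saline counts of 1291, 3000 and 2119. It shares its donor side with novel_circ_0035007 at chr5:167486001-167526275, which had CFA counts of 666, 901 and 849 reads and saline counts of 532, 1304 and 1306. Both neighbours were read in every rat, the lower of them at 532 reads or more.
novel_circ_0035023: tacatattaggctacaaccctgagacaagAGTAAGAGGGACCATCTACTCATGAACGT
novel_circ_0035025: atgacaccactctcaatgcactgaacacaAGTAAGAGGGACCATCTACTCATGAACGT
novel_circ_0035007: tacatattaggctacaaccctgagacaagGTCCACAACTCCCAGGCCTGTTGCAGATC

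**Figure D5:**
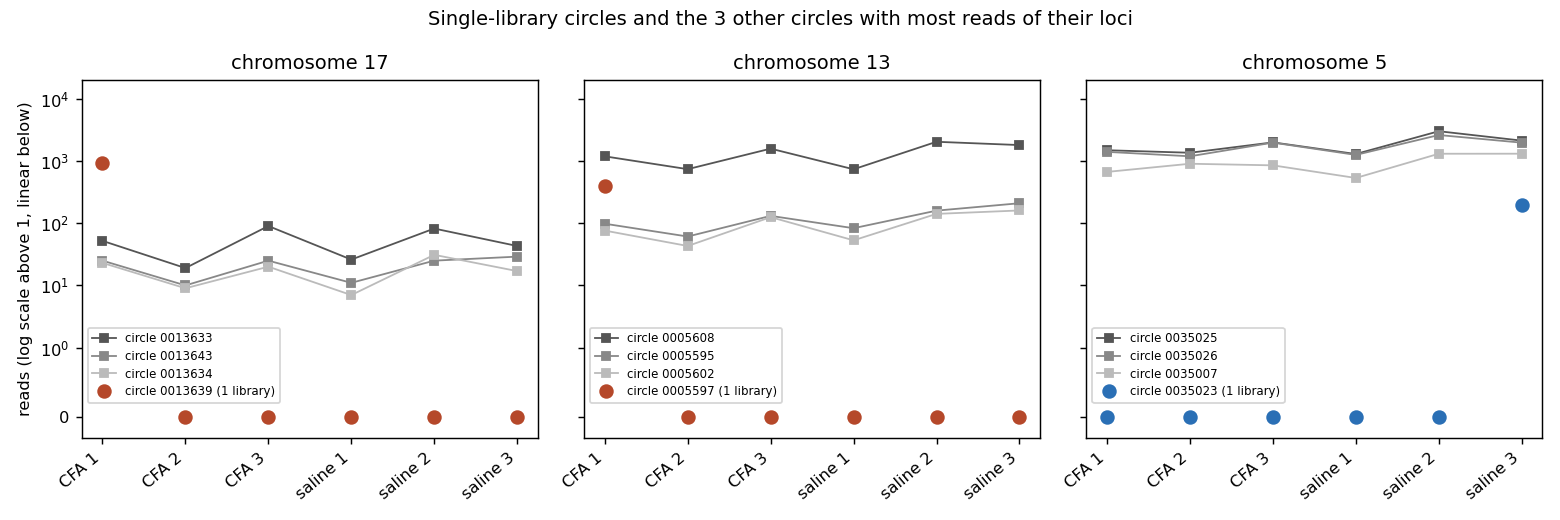
Reads in each library of 3 single-library circles (coloured points, red for CFA and blue for saline) and of the 3 other circles with the most reads in the same locus (grey squares), on an axis that is logarithmic above 1 read and linear below. The coloured point lies at 937, 395 and 194 reads in 1 library and at 0 in the other 5, while every grey square is above 0.

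The same reuse of both ends was seen at lower counts. Of the 28 single-library circles with both ends shared, the one with the most reads in CFA replicate 3 was novel_circ_0035798, 606 nt at chr5:64346707-64399407 on the plus strand, with 81 reads. Its start is that of novel_circ_0035795, which had CFA counts of 1896, 2793 and 4316 reads and saline counts of 1879, 4145 and 3158. In saline replicate 1 it was novel_circ_0048399 on chromosome X, with 37 reads. In saline replicate 2 it was novel_circ_0015143 on chromosome 18, with 19 reads, and in CFA replicate 2 the unspliced novel_circ_0021057 on chromosome 1, with 14 reads. The other circles of these 4 loci together had reads in all 6 libraries.

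Other circles with high counts had no neighbour at all. In CFA replicate 2 the unspliced 1372 nt novel_circ_0015470, the second junction above, had 375 reads (575 RPM), the most of any unspliced single-library circle after CFA. In saline replicate 1, novel_circ_0038526, a 535 nt circle spanning 1830 nt, had 587 reads (1023 RPM). The 139 nt novel_circ_0045319 on the minus strand at chr8:96982838-96985190 followed in that library with 231 reads. In CFA replicate 3, novel_circ_0031238, 244 nt, had 96 reads. No other circle overlapped any of these 4 on the same strand.

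In CFA replicate 2 a whole group of circles was read that is listed at 0 in the other 5 libraries. On the plus strand of chromosome 10, 4 circles start at position 72203091 and end at 72209962, 72211151, 72211698 and 72212356. They had 157, 16, 46 and 215 reads, in that order, and are the whole of their locus. All 4 join the same acceptor side, in capitals, to different donor sides.
novel_circ_0001879: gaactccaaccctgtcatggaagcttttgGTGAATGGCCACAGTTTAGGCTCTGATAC
novel_circ_0001880: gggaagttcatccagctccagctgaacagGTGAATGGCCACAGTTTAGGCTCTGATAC
novel_circ_0001881: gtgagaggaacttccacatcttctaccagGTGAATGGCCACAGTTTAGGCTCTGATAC
novel_circ_0001882: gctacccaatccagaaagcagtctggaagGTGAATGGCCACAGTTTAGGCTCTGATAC
The spliced lengths of these 4 circles were 535, 491, 461 and 558 nt, so the circle with the farthest end was the longest, while the shortest was not the one with the nearest end. The first donor side ends in TG and the other 3 end in AG.

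The 2 unspliced circles with the most reads in saline replicate 2 differed in their surroundings. The 1318 nt novel_circ_0027116, the fifth junction above, had 415 reads (353 RPM), the most of any unspliced single-library circle after saline. The 2 other circles of its locus had 6 reads in CFA replicate 2 and 3 reads in saline replicate 3, and none in saline replicate 2. The 1372 nt novel_circ_0002593, on the minus strand at chr10:92474821-92476192, had 353 reads. The 6 other circles of its locus together had CFA counts of 277, 379 and 427 reads and saline counts of 309, 651 and 421. It shares its higher coordinate with novel_circ_0002592, which had CFA counts of 21, 14 and 38 reads and saline counts of 13, 18 and 32.

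In saline replicate 3, novel_circ_0032324 and novel_circ_0032316 came from the same locus on the minus strand of chromosome 4. The 477 nt novel_circ_0032324, at chr4:58408730-58485447, had 107 reads, and the 652 nt novel_circ_0032316, at chr4:58367537-58408977, had 81. Their coordinates overlap by a short stretch at 58408730 to 58408977. The circle with the most reads of that locus over all libraries, novel_circ_0032328, shares its higher coordinate with novel_circ_0032324. It had CFA counts of 110, 171 and 109 reads and saline counts of 78, 0 and 67, so it was itself listed at 0 in saline replicate 2.

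Of the 10 features compared between the groups, the unspliced share of single-library circles had values that did not overlap. In the CFA libraries it ranged from 2.79% to 4.85%, and in the saline libraries from 6.58% to 9.59%, with means of 3.90% ± 1.04 and 8.03% ± 1.51 (SD, n = 3 each). The exact permutation p was 0.1, the smallest that 3 against 3 libraries allow, and 0.857 after Benjamini-Hochberg adjustment over the 10 features. The CFA values rest on 14 unspliced circles in all and the saline values on 53, of which 35 were in saline replicate 2. After thinning, with the circles chosen anew, the means were 3.77% ± 0.921 and 17.2% ± 14.7 (SD, n = 3 each; exact permutation p = 0.1), with 33.8% in saline replicate 2. Among circles of all 6 libraries the share overlapped between the groups, at 2.50% to 2.74% after CFA and 2.50% to 2.79% after saline. The part of depth and of saline replicate 2 in the difference was not tested.

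The other 9 features overlapped between CFA and saline. Median length was 344 ± 28.2 and 381 ± 50.3 nt (SD, n = 3 each; exact permutation p = 0.3, adjusted 0.857). Median span was 10234 ± 560 and 11081 ± 2093 nt (SD, n = 3 each; exact permutation p = 0.6). An end shared with a circle of all 6 libraries was found in 32.8% ± 1.49 and 32.9% ± 5.86 (SD, n = 3 each; exact permutation p = 1). With 3 libraries per group these tests cannot reach 0.05.

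Per circle, CFA and saline were compared over 22426 circRNAs with edgeR's quasi-likelihood test and Benjamini-Hochberg adjustment, which called 28 (0.125%). Among them were 7 of the 997 single-library circles, and since the same counts chose these circles, nothing is read from this. On simulated counts as sparse as these the fit called more unchanged circles than its threshold allows. Of the 7, novel_circ_0000633 (59 reads) and novel_circ_0035248 (54 reads) were in CFA replicate 1, and novel_circ_0035798 (81 reads) in CFA replicate 3. The saline libraries held novel_circ_0038749 (53 reads, replicate 1), novel_circ_0024933 (89 reads, replicate 2), novel_circ_0041809 (91 reads, replicate 2) and novel_circ_0032316 (81 reads, replicate 3). The adjusted p ranged from 0.0117 to 0.0372 in edgeR's quasi-likelihood test (Benjamini-Hochberg adjusted). Circles with far higher counts in 1 library, such as novel_circ_0013639 with 937 reads, were not called there (adjusted p = 0.9999, edgeR). Each of these calls rests on 1 library of 3. DESeq2 gave no adjusted p for 4 of the 7 and did not call the other 3, and none of the 7 was called with a replicate block or with a fit that is not robust.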

How the data were processed

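Thalamus RNA of 6 rats, described as separate animals in the labels, was purified with poly-T beads and copied with random hexamers, per the labels' protocols. Such beads bind poly(A) tails, which circRNAs lack. Tools named in the submitters' processing notes include DESeq2 1.20.0, featureCounts 1.5.0-p3, HISAT2 2.0.5 and StringTie 1.3.3b (circRNA caller and build not given in the sources used here). A table deposited by the authors gives raw read counts and, under a TPM header, values that are RPM: within a library 1 read had the same value for every circRNA. RPM printed here were computed from the deposited counts. The lowest count above 0 was 2, so a listed 0 may be 1 read. Counts cover PCR reads without molecular identifiers.

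The circles and lists were chosen with earlier results of these data known. Positions, spliced sequences and 58 nt junctions came from the deposited sequence file, with 1 added to starts. For 44 circRNAs with 2 sequence records the first was used. Features were compared in each library and tested over the 6 libraries by exact two-sided sign flips, with Benjamini-Hochberg adjustment over 10 features. Groups were compared by exact two-sided permutation of 3 against 3 libraries. edgeR 4.0.16 (R 4.3.3, TMM, robust quasi-likelihood fit) tested circRNAs with at least 10 counts in all, with DESeq2 1.42.0 as an alternative. The fit was tested on data simulated from the means and library sizes of these counts. There it made more false calls over all circRNAs tested than its threshold allows. Python 3.11.15 was used otherwise. Circles were named by rule: the 2 with the highest count per library, the highest with both ends shared per library, the highest unspliced per group and those called in edgeR. Circles that share an end or a locus with these were named for comparison. Host gene and cell type lists were not analysed here, since no deposited identifier is paired with a gene name. The column name of CFA replicate 3 starts with a letter that the other CFA columns do not have, of unknown meaning.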

Additional observations from a re-analysis of the deposited data

How the results depend on the processing

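The mean differences from circles of all 6 libraries in length, span, unspliced share, end sharing and overlap kept their direction. This held for the mean under every minimum, comparison class and left-out library tried, and none passed 0.05 after adjustment. Single libraries did not all follow. At a minimum of 20 reads, for example, single-library circles were longer in CFA replicate 2 and saline replicates 1, 2 and 3. End sharing was then higher in CFA replicate 1 (81.8% beside 67.3%). At a minimum of 5 the unspliced share was lower in CFA replicates 2 and 3. The share ending in AG kept its direction on average, at -4.01 to -1.07 points. The share beginning with G turned to -0.0496 percentage points at a minimum of 5 reads, and the share overlapping on the opposite strand alone to -0.0624 at a minimum of 20. Leaving out 1 library gave differences of -132 to -112 nt in length, -2827 to -2051 nt in span, 2.59 to 3.95 points in the unspliced share and -32.5 to -30.3 points in end sharing, and with 5 libraries the smallest possible exact permutation p is 0.0625. For CFA minus saline, a minimum of 5 reads gave -336 circles and -1.46 points in their percentage, while a minimum of 10 RPM turned both, to 38.7 circles and 0.364 points (exact permutation p = 0.6 each). A minimum of 20, which left 8 to 30 circles per library, gave -135 nt in length, 6303 nt in span, 13.9 points in end sharing and 20.03 in overlap. The unspliced share differed by -1.43 points at 5 reads, -23.5 at 20, -7.01 at 10 RPM and, chosen after seeing the data, -13.5 after thinning, and -4.86 to -3.35 with 1 library left out. The number of circles differed by -134 to 10.7 with 1 library left out, turning sign without saline replicate 2. What causes these shifts was not tested.

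Of the 28 circRNAs and 7 single-library circles called in edgeR, DESeq2 called 4 and 1. With filterByExpr, which left no single-library circle in the test, 0 of 9228 circRNAs were called and 130 of the 9228 had an unadjusted p under 0.05. The fit that is not robust called 32 of 22426 circRNAs, among them 14 of the 997 single-library circles. Leaving out 1 library gave 15 to 40 and 0 to 5 calls, with 0 single-library calls without saline replicate 1. A replicate block gave 45 and 15 calls, none of the 15 among the 7, and a p of 0.75 for the number of circles and 0.25 for the unspliced share, by exact permutation within pairs, where 0.25 is the smallest possible. The numbers gave no sign of pairing the rats, since deviations of same-numbered libraries correlated at -0.0714 to 0.0233 over circRNAs.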
